A study of Mus musculus with 12 samples.

Results

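The clustered protocadherins are the cell-surface cadherins encoded by 3 neighbouring gene clusters, named alpha, beta and gamma, on mouse chromosome 18. They were taken here as every gene of the deposited count table whose symbol is Pcdha, Pcdhb, Pcdhga, Pcdhgb or Pcdhgc with a number, or Pcdhac with a number. This gave 58 of the 23079 genes: 14 alpha, 21 beta, 22 gamma and 1 row named Pcdha4-g, which joins alpha and gamma sequence. At least 10 counts in 3 or more libraries were found for 57 of the 58, and the same 57 passed the filter on low counts that precedes testing. They were all 14 alpha rows, 20 of 21 beta rows, all 22 gamma rows and Pcdha4-g. Pcdhb1 was the row left out. Of all genes in the table, 14732 passed that filter (63.8%).

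RNA was sequenced from sorted neurons of the pontine nucleus, a hindbrain relay between cerebral cortex and cerebellum, of CD-1 mice at E18.5, shortly before birth. The groups are Hoxa5tdTomato (n = 3), Math1Hoxa5-IRES-GFP (n = 3) and Math1tdTomato, the reference (n = 6). Per the labels each library came from 2000 sorted cells, with RNA of 1000 cell equivalents amplified before sequencing. The table's column names add that Hoxa5tdTomato used a Hoxa5 cre, that Math1Hoxa5-IRES-GFP carries a Cag lsl Hoxa5 allele, and that 3 references name Math1 creErt2 while the other 3 name Math1 tdT. No label says whether the libraries of a group came from separate animals or litters, so every p-value measures only the spread between these libraries.

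Hoxa5 itself checks the labels. It stood at 127, 221 and 119 CPM (counts relative to the TMM-scaled library size) in Hoxa5tdTomato and at 9.73, 16.8 and 81.9 CPM in Math1Hoxa5-IRES-GFP, against 4.35 to 32.2 CPM in the 6 Math1tdTomato libraries. The first group was above every reference, whereas replicates 1 and 2 of the second lay inside the reference range. Hoxa5 was higher in Hoxa5tdTomato by a log2 fold change of 3.46 ± 0.59 (SE, adjusted p = 0.00712, edgeR) against all 6 references. Against the references of its set in a fit of 4 groups, described next, it was 3.53 ± 0.80 (adjusted p = 0.0698, edgeR), and the call was lost. In Math1Hoxa5-IRES-GFP the differences were 1.35 ± 0.59 (adjusted p = 0.255, edgeR) and 1.28 ± 0.74 (adjusted p = 0.475, edgeR), so directions given for that group below are those of libraries labelled that way. Whether the counts include the transcript of the introduced allele is not stated in the sources at hand.

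From the words of the column names, Hoxa5tdTomato was set beside the creErt2 references and Math1Hoxa5-IRES-GFP beside the tdT references. No label states this pairing. Libraries of the first set held 9973484 to 13302076 counts and those of the second 22355961 to 29820776, so sequencing depth and set cannot be told apart. Comparisons are made first against all 6 references, because the design text describes them so. The creErt2 references set against the tdT references gave 1.34% of tested genes called (edgeR, fit of 4 groups). A comparison with all 6 therefore also holds differences between the sets. Values against the 3 references of the same set follow for the 3 clusters, for the lists of regulators, effectors and neighbouring genes, and for marker genes called. The comparisons with all 6 references share those libraries, and those within sets share none. Math1Hoxa5-IRES-GFP replicate 3 stood apart, with 13074 genes detected, the fewest of the 12 libraries, and a lowest correlation with its replicates of 0.86.

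Clustered protocadherins are homophilic adhesion molecules, and the combination a neuron displays helps its branches to recognise and avoid one another. In the alpha and gamma clusters each gene has its own promoter and its own large variable exon, which encodes the extracellular and transmembrane parts. That exon is spliced to 3 constant exons at the end of the cluster, which encode a common intracellular end. Beta genes have a single coding exon and no constant exons. Most promoters are chosen at random in each neuron, with CTCF and cohesin bringing enhancers to the chosen ones, whereas the C-type genes at the ends of the alpha and gamma clusters (Pcdhac1, Pcdhac2, Pcdhgc3, Pcdhgc4 and Pcdhgc5) are used more uniformly.

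This arrangement shapes what the rows of the table count. On GRCm38, the mouse genome build also called mm10, the alpha genes span positions 36930285 to 37188897, the beta genes 37264998 to 37521419 and the gamma genes 37661775 to 37841873 of chromosome 18, in RefSeq annotation. In the GENCODE annotation of the same build 13 alpha genes were found by name. All 13 share exons of 59, 89 and 2712 bases, the last at 37184946 to 37187657. All 22 gamma genes share exons of 59, 89 and 1968 bases, the last at 37839903 to 37841870. The deposited row lengths include both kinds of exon: Pcdha1, for example, has 5251 bases, of which 2391 are its own.

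The alpha rows held nearly the same count, and most gamma rows lay close together. In every library the lowest alpha row reached 91.4 to 96.5% of the highest, and the lowest gamma row 61.5 to 87.4%. In Hoxa5tdTomato replicate 1 the 14 alpha rows ran from 4685 to 4998 counts. The sources at hand do not state how reads of shared exons were assigned. The alpha rows, and likewise the gamma rows, thus repeat 1 largely common quantity, and a count of 14 alpha rows or of 22 gamma rows is not a count of independent genes. The lowest row of each cluster is used below as its level, and the reads of a row above that lowest row as the part that tells members apart.

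**Figure D1:**
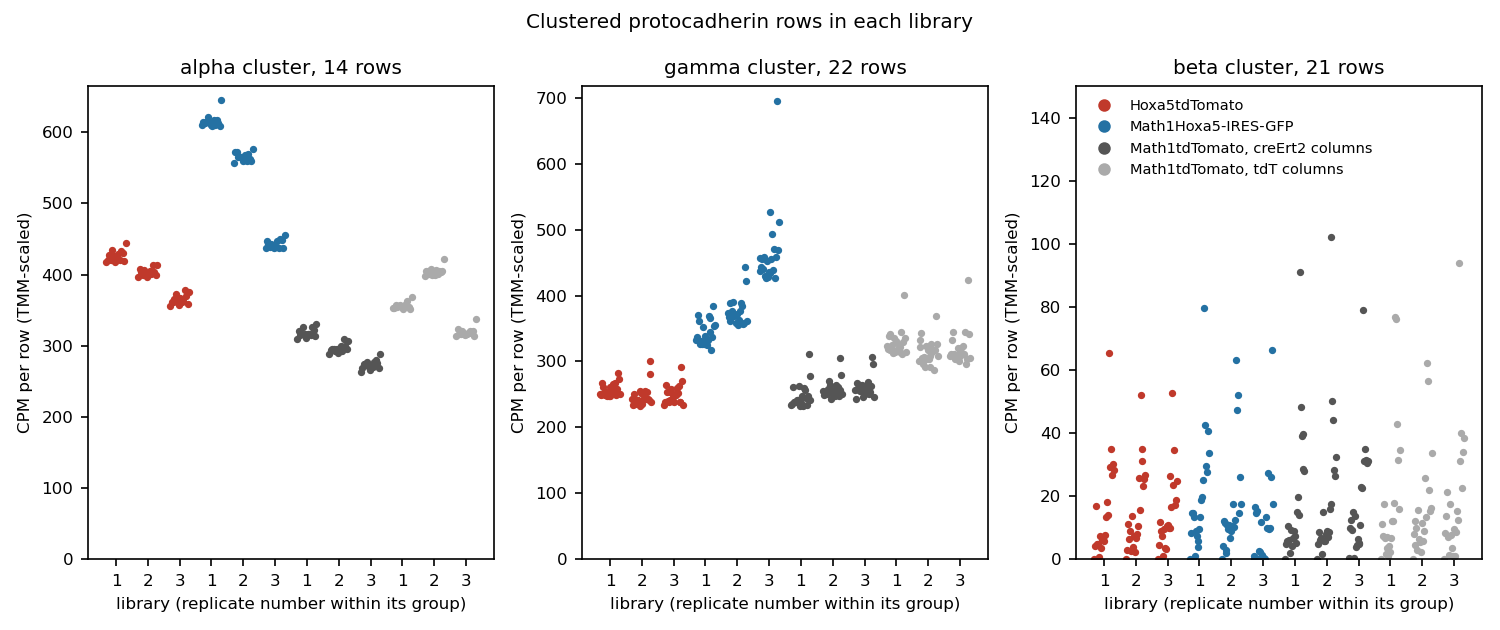
Each point is 1 row of the table in 1 library, with CPM after TMM scaling on the y axis (each panel has its own scale) and the 12 libraries on the x axis, coloured by group. Alpha rows, and most gamma rows, of a library lie close together, with the lowest alpha row between 438 and 609 CPM in Math1Hoxa5-IRES-GFP against 263 to 398 CPM in Math1tdTomato, while beta rows spread widely.

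After TMM scaling, the alpha cluster was higher in the libraries labelled Math1Hoxa5-IRES-GFP than in every reference library. The lowest alpha row stood at 609, 557 and 438 CPM in Math1Hoxa5-IRES-GFP. In Math1tdTomato it stood at 309, 288 and 263 CPM in the creErt2 libraries and at 351, 398 and 313 CPM in the tdT libraries. The groups did not overlap on this scale, and the lowest of the 3 values was replicate 3, the library of the 3 with the most Hoxa5. As a share of the unscaled library total they did overlap. The alpha rows summed to 0.529% in Math1Hoxa5-IRES-GFP replicate 3 and to 0.559% in Math1tdTomato tdT replicate 2. Group means were 535 ± 87.7 CPM (SD, n = 3) in Math1Hoxa5-IRES-GFP and 320 ± 47.9 CPM (SD, n = 6) in Math1tdTomato.

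Against all 6 references, 14 of 14 alpha rows were called higher in Math1Hoxa5-IRES-GFP, against 1.3% of all tested genes called higher. Their log2 fold changes ran from 0.71 to 0.74 (SE 0.14 to 0.15), and their adjusted p from 0.013 to 0.0153 (edgeR quasi-likelihood test, Benjamini-Hochberg over 14732 genes). The median over all tested genes was 0.00. In TMM-scaled CPM the same 14 rows lay above all 6 references in every library, as did 3.11% of all tested genes. The call depended on the references: against the 3 tdT libraries, in a fit with 4 groups, the log2 fold changes were 0.57 to 0.60 with adjusted p from 0.0768 to 0.0887, and 0 rows were called (0.536% of tested genes were called higher). Without Math1Hoxa5-IRES-GFP replicate 3 that fit gave 0.70 to 0.72 with adjusted p from 0.00477 to 0.00573, and 14 of 14 rows were called (1.57% of tested genes were called higher). It also depended on the scaling: with library size as the only scaling, against all 6 references, adjusted p ran from 0.0489 to 0.0569 (edgeR) and 2 of 14 rows were called (0.713% of tested genes were called higher).

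In Hoxa5tdTomato the lowest alpha row stood at 417, 396 and 356 CPM. These values lay above all 3 creErt2 libraries and overlapped with the tdT libraries. All 14 alpha rows were above the 3 creErt2 references in every library, as were 12.7% of all tested genes, and 0 of 14 were above all 6 references (7.15% of tested genes). Against all 6 references their log2 fold changes were 0.26 to 0.29 (SE 0.14 to 0.15, adjusted p from 0.368 to 0.445, edgeR), and 0 rows were called, where 0.842% of tested genes were called higher.

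Against the creErt2 references the outcome for Hoxa5tdTomato turned on which libraries gave the spread. With all 12 libraries in the fit of 4 groups, alpha log2 fold changes were 0.42 to 0.44 (SE 0.15, adjusted p from 0.30 to 0.332, edgeR), and 0 of 14 rows were called (0.292% of tested genes were called higher). With the 6 libraries of that set fitted alone they were 0.44 to 0.47 (SE 0.10 to 0.11, adjusted p from 0.00933 to 0.0118, edgeR), and 14 of 14 rows were called, against 4.18% of tested genes called higher. The same separate fit for Math1Hoxa5-IRES-GFP against the tdT libraries gave 0.58 to 0.61 (adjusted p from 0.504 to 0.525, edgeR), with 0 rows called (0.0522% of tested genes).

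Against all 6 references, 3 of 13 tested endothelial and 3 of 9 tested pericyte markers were called higher in Hoxa5tdTomato, where 0.842% of tested genes were. In Math1Hoxa5-IRES-GFP 0 of either list were, where 1.3% of tested genes were. Against the creErt2 references in the fit of 4 groups these vessel calls were lost, with adjusted p from 0.153 for Eng to 0.323 for Esam (edgeR). The summed level of 14 endothelial markers was 123 to 217 CPM in Hoxa5tdTomato and 9.17 to 51.5 CPM in Math1Hoxa5-IRES-GFP, against 2.78 to 31.0 CPM in Math1tdTomato. Of these markers, Egfl7 was at 0 in every Math1Hoxa5-IRES-GFP library and none was at 0 throughout the other groups. The summed level of 10 pericyte markers was 113 to 221 CPM in Hoxa5tdTomato and 6.07 to 56.5 CPM in Math1Hoxa5-IRES-GFP, against 3.35 to 31.0 CPM in Math1tdTomato, where Anpep was at 0. The summed level of 15 astroglial markers was 1290 to 1780 CPM in Hoxa5tdTomato, where Gfap was at 0, and 1240 to 1580 CPM in Math1Hoxa5-IRES-GFP, against 910 to 1310 CPM in Math1tdTomato. Of its 14 tested genes, Ptprz1 and Slc4a4 were called higher in Hoxa5tdTomato, with a list median log2 fold change of 0.50, and Ptprz1 alone in Math1Hoxa5-IRES-GFP, with a list median of -0.63. Within sets these calls were lost too. Adjusted p in Hoxa5tdTomato was 0.054 for Ptprz1 and 0.107 for Slc4a4, and in Math1Hoxa5-IRES-GFP 0.114 for Ptprz1 (edgeR). Ptprz1, a receptor phosphatase also made by oligodendrocyte precursors, averaged 424 CPM in Hoxa5tdTomato and 396 CPM in Math1Hoxa5-IRES-GFP, against 142 CPM in Math1tdTomato. Without Ptprz1 the astroglial sum was 908 to 1330 CPM in Hoxa5tdTomato and 728 to 1120 CPM in Math1Hoxa5-IRES-GFP, against 820 to 1160 CPM in Math1tdTomato, and all groups overlapped. The summed level of 8 meningeal markers was 11.7 to 17.7 CPM in Hoxa5tdTomato and 0.0 to 7.6 CPM in Math1Hoxa5-IRES-GFP, against 1.25 to 6.51 CPM in Math1tdTomato. That of 11 oligodendrocyte markers was 166 to 217 CPM in Hoxa5tdTomato and 77.3 to 179 CPM in Math1Hoxa5-IRES-GFP, against 91.7 to 159 CPM in Math1tdTomato. On these lists the Hoxa5tdTomato libraries lay above every reference. Of 4 tested meningeal and 10 tested oligodendrocyte markers, 0 were called. Sums of 10 microglial markers were 7.61 to 64.4 CPM in Hoxa5tdTomato and 0.0 to 6.07 CPM in Math1Hoxa5-IRES-GFP, against 0.321 to 15.7 CPM in Math1tdTomato. Sums of 10 GABAergic markers were 122 to 222 CPM in Hoxa5tdTomato and 163 to 431 CPM in Math1Hoxa5-IRES-GFP, against 161 to 313 CPM in Math1tdTomato. Sums of 8 serotonergic markers were 17.3 to 25.7 CPM in Hoxa5tdTomato and 21.1 to 35.8 CPM in Math1Hoxa5-IRES-GFP, against 14.6 to 31.2 CPM in Math1tdTomato. Sums of 10 markers of dividing cells were 72.5 to 119 CPM in Hoxa5tdTomato and 61.3 to 72.0 CPM in Math1Hoxa5-IRES-GFP, against 51.4 to 80.5 CPM in Math1tdTomato. These last 4 lists overlapped between both conditions and Math1tdTomato. Gad2 carried most of the GABAergic sum, with means of 156 CPM in Hoxa5tdTomato, 223 in Math1Hoxa5-IRES-GFP and 169 in Math1tdTomato. Slc18a2 carried most of the serotonergic sum, with means of 15.2, 27.4 and 21.3 CPM in the same order. Of 7 tested microglial, 6 GABAergic, 5 serotonergic and 9 dividing-cell markers, 0 were called in either comparison. The part of these cells in the protocadherin values was not tested. In such bulk samples fewer cells of a type and less RNA per cell cannot be told apart. The summed level of 12 pontine neuron genes was 3500 to 4150 CPM in Hoxa5tdTomato and 5160 to 7550 CPM in Math1Hoxa5-IRES-GFP, against 5630 to 7620 CPM in Math1tdTomato. Nfib, a transcription factor that many other cells also make, carried most of it, at 2760 to 3440 CPM in Hoxa5tdTomato and 4200 to 6100 CPM in Math1Hoxa5-IRES-GFP, against 4670 to 6290 CPM in Math1tdTomato. Nfib was called lower in Hoxa5tdTomato (adjusted p = 0.00594, edgeR), and Lhx2 in Math1Hoxa5-IRES-GFP (adjusted p = 0.00732, edgeR). Within sets both stayed called (adjusted p = 0.0223 and 0.00524, edgeR). Without Nfib the sum of the other 11 genes was 714 to 754 CPM in Hoxa5tdTomato and 959 to 1450 CPM in Math1Hoxa5-IRES-GFP, against 837 to 1330 CPM in Math1tdTomato. On this sum too, Hoxa5tdTomato lay below every reference in TMM-scaled CPM. The median log2 fold change of the 11 tested pontine genes was -0.51 in Hoxa5tdTomato and 0.29 in Math1Hoxa5-IRES-GFP. Barhl1, 1 of these genes, had -0.09 in Hoxa5tdTomato and 0.29 in Math1Hoxa5-IRES-GFP. Tbr1 was at 0 in all Math1Hoxa5-IRES-GFP libraries. Ptprz1 and Nfib were left out of these sums after their values were seen.

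Among the alpha members, reads above the lowest row were few. They summed to 131, 101 and 122 CPM over all alpha rows in Hoxa5tdTomato and to 94.2, 114 and 70.2 CPM in Math1Hoxa5-IRES-GFP. In Math1tdTomato the sums were 129, 117 and 138 CPM in the creErt2 libraries and 69.9, 88.9 and 88.6 CPM in the tdT libraries. The groups overlapped in this quantity, including Math1Hoxa5-IRES-GFP, whose lowest rows did not overlap with the references in TMM-scaled CPM.

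Pcdhac2, a C-type gene next to the constant exons, led these reads in 10 of 12 libraries. Its reads above the lowest row came to 27.8, 18.1 and 19.6 CPM in Hoxa5tdTomato and to 37.1, 19.9 and 16.9 CPM in Math1Hoxa5-IRES-GFP, against 18.2 to 25.6 CPM in Math1tdTomato. The groups overlapped. Pcdha11, one of the randomly chosen genes, led in the other 2 libraries. Its reads above the lowest row came to 16.5, 17.1 and 21.4 CPM in Hoxa5tdTomato and to 8.98, 11.8 and 11.9 CPM in Math1Hoxa5-IRES-GFP. They came to 17.6, 22.2 and 16.7 CPM in the creErt2 and 11.3, 7.24 and 5.91 CPM in the tdT libraries of Math1tdTomato, so for Pcdha11 each group stood near the references of its own set. Pcdhac1, the other alpha C-type gene, stood low, at 2.47 to 3.37 CPM in Hoxa5tdTomato and 0.00 to 2.83 CPM in Math1Hoxa5-IRES-GFP, against 0.00 to 7.55 CPM in Math1tdTomato. Pcdha1, the gene farthest from the constant exons, was the lowest row, or tied for it, in 10 of 12 libraries.

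When each row was replaced by its reads above the lowest row, 13 alpha rows passed the filter and 0 were called in either comparison with all 6 references (edgeR; 0.815% of genes were called higher in Hoxa5tdTomato and 1.17% in Math1Hoxa5-IRES-GFP). At an unadjusted p under 0.05, 0 of the 13 passed in Hoxa5tdTomato, where 2142 of 14731 genes did, and 1 in Math1Hoxa5-IRES-GFP, where 2426 of 14731 genes did. Log2 fold changes ranged from -1.53 to 0.66 in Hoxa5tdTomato and from -2.93 to 0.52 in Math1Hoxa5-IRES-GFP. The lower end of the second range was Pcdha10 (adjusted p = 0.067, edgeR), a gene singled out after its values were seen. A change in use that raised all alpha variable exons equally would not show in this quantity.

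**Figure D2:**
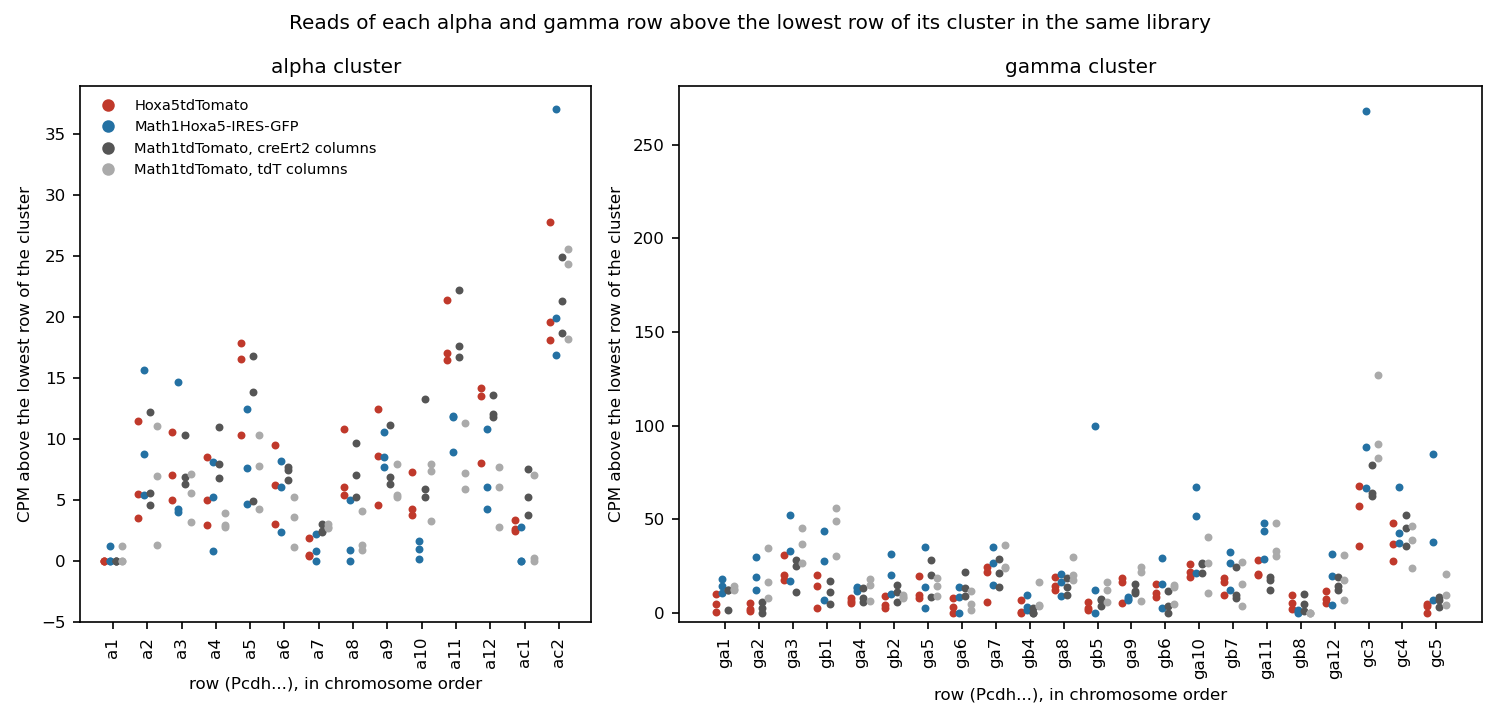
Each point is 1 library; the y axis gives CPM of a row above the lowest row of its cluster in the same library, and rows run along the x axis in chromosome order. Pcdhac2 and Pcdha11 stood highest in the alpha cluster and Pcdhgc3 in the gamma cluster, where Math1Hoxa5-IRES-GFP replicate 3 gave the point at 268 CPM.

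The gamma cluster in Hoxa5tdTomato overlapped with the references of its set, and in Math1Hoxa5-IRES-GFP it lay above every reference without passing the test. Its lowest row stood at 247, 233 and 234 CPM in Hoxa5tdTomato and at 317, 355 and 427 CPM in Math1Hoxa5-IRES-GFP. In Math1tdTomato it stood at 233, 243 and 243 CPM in the creErt2 libraries and at 311, 287 and 296 CPM in the tdT libraries. The creErt2 and tdT references did not overlap with each other. Unlike the alpha cluster, gamma was highest in replicate 3 of Math1Hoxa5-IRES-GFP.

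Against all 6 references, 0 of 22 gamma rows were called in Math1Hoxa5-IRES-GFP (edgeR; 1.84% of tested genes in either direction). Their log2 fold changes ran from 0.40 to 0.56 with adjusted p from 0.0643 to 0.189. All 22 had an unadjusted p under 0.05, as did 2456 of 14732 genes, and DESeq2 called 7 of 22 (5.64% of tested genes). Of these rows, 21 lay above all 6 references in every library, against 3.11% of tested genes. Within its set the log2 fold changes were 0.19 to 0.40 (adjusted p from 0.238 to 0.554, edgeR), and 0.06 to 0.22 without replicate 3.

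In Hoxa5tdTomato 0 of 22 gamma rows were called against all 6 references (edgeR; 1.73% of tested genes), with log2 fold changes from -0.28 to -0.15 and adjusted p from 0.52 to 0.726. At an unadjusted p under 0.05, 0 of 22 passed, where 2148 of 14732 genes did, and DESeq2 called 0 (4.22% of tested genes). Against the creErt2 references the log2 fold changes were -0.08 to 0.03 (SE 0.12 to 0.18). The creErt2 references set against the tdT references gave gamma log2 fold changes of -0.45 to -0.23 (adjusted p from 0.11 to 0.479, edgeR), with 0 rows called, where 1.34% of tested genes were called.

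The lowest gamma row relative to the lowest alpha row also differed between libraries. A lowest row can hold reads of its own exon too, so it need not be the level of the constant exons alone. Per kilobase of shared exon, the lowest gamma row stood at 117, 110 and 110 CPM in Hoxa5tdTomato and at 150, 168 and 202 CPM in Math1Hoxa5-IRES-GFP, against 110 to 147 CPM in Math1tdTomato. The lowest alpha row per kilobase stood at 146, 139 and 125 CPM in Hoxa5tdTomato and at 213, 195 and 153 CPM in Math1Hoxa5-IRES-GFP, against 92.1 to 139 CPM in Math1tdTomato. The ratio of lowest gamma row to lowest alpha row, in CPM, was 0.592, 0.588 and 0.656 in Hoxa5tdTomato and 0.521, 0.638 and 0.974 in Math1Hoxa5-IRES-GFP, against 0.721 to 0.947 in Math1tdTomato. All 3 Hoxa5tdTomato libraries and replicates 1 and 2 of Math1Hoxa5-IRES-GFP lay below every reference, and replicate 3 lay above every reference. This ratio was formed after the counts were seen and was not tested.

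Among gamma members, Pcdhgc3, the C-type gene that neurons and glia both use, had the most reads above the lowest row in 12 of 12 libraries. They came to 35.6, 67.6 and 57.0 CPM in Hoxa5tdTomato and to 66.5, 88.5 and 268 CPM in Math1Hoxa5-IRES-GFP. In Math1tdTomato they came to 78.9, 62.3 and 64.0 CPM in the creErt2 libraries and 89.9, 82.4 and 127 CPM in the tdT libraries. Replicate 3 of Math1Hoxa5-IRES-GFP was alone in passing the references. Pcdhgc4, a C-type gene known to matter for interneuron survival, had 27.7, 48.2 and 36.9 CPM in Hoxa5tdTomato and 37.0, 67.2 and 42.4 CPM in Math1Hoxa5-IRES-GFP, against 23.7 to 52.3 CPM in Math1tdTomato, with overlap between all groups.

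Pcdhgc5, the third gamma C-type gene, was low in most libraries. Its reads above the lowest row came to 3.56, 4.44 and 0.00 CPM in Hoxa5tdTomato and to 37.8, 6.70 and 84.9 CPM in Math1Hoxa5-IRES-GFP, against 2.90 to 20.6 CPM in Math1tdTomato. Replicates 1 and 3 of Math1Hoxa5-IRES-GFP were high and replicate 2 was not. Replicate 3 was also high for Pcdhgb5, at 100 CPM, against 0.00 to 16.3 CPM in the other 11 libraries, a row singled out after its values were seen. Pcdhgb8 was the lowest row in 4 libraries.

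In reads above the lowest row, 0 of 22 gamma rows were called in either comparison with all 6 references (edgeR; 1.67% of genes were called in Hoxa5tdTomato and 1.68% in Math1Hoxa5-IRES-GFP). At an unadjusted p under 0.05, 0 of 22 passed in Hoxa5tdTomato, where 2142 of 14731 genes did, and 5 of 22 in Math1Hoxa5-IRES-GFP, where 2426 of 14731 genes did. The highest gamma value in Math1Hoxa5-IRES-GFP was a log2 fold change of 2.32 for Pcdhgc5 (adjusted p = 0.145, edgeR).

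The row Pcdha4-g has a length of 4580 bases and runs in RefSeq from the alpha cluster, at 36952648, to the last gamma exon, at 37841873. It stood at 245, 233 and 238 CPM in Hoxa5tdTomato and 321, 361 and 426 CPM in Math1Hoxa5-IRES-GFP, against 229 to 308 CPM in Math1tdTomato. In counts it differed from the lowest gamma row by between -91 and 121 in the 12 libraries. It followed the gamma rows and not Pcdha4, which stood at 421, 399 and 365 CPM in Hoxa5tdTomato and at 614, 565 and 439 CPM in Math1Hoxa5-IRES-GFP, against 274 to 401 CPM in Math1tdTomato. With the exons it shares, its counts cannot be told apart from those of the gamma rows.

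The beta genes, with no shared exons, gave rows that do differ from one another. Near-identical stretches between neighbouring beta genes leave the assignment of reads to 1 of them uncertain. Summed over the 21 beta rows, the level was 329, 318 and 305 CPM in Hoxa5tdTomato and 417, 350 and 245 CPM in Math1Hoxa5-IRES-GFP. In Math1tdTomato it was 393, 403 and 380 CPM in the creErt2 libraries and 388, 338 and 388 CPM in the tdT libraries. After TMM scaling, all 3 Hoxa5tdTomato libraries lay below all 6 references, and Math1Hoxa5-IRES-GFP had values above, inside and below their range. Relative to unscaled library totals, Hoxa5tdTomato overlapped with the references. Its replicate 1 had 3698 beta counts of 10057999, and tdT replicate 2 had 7456 of 22373485, a smaller share.

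Levels within the beta cluster were uneven. The 8 rows nearest the gamma cluster, Pcdhb14 to Pcdhb20 and Pcdhb22, were the 8 highest per kilobase in Math1tdTomato. In Math1tdTomato, Pcdhb16 averaged 16.0 CPM per kilobase, Pcdhb17 14.9, Pcdhb20 7.97 and Pcdhb18 7.36 (n = 6). The lowest tested row was Pcdhb6, at 0.705 CPM per kilobase. Pcdhb1, at the alpha end, had counts in 1 library alone, a creErt2 reference, and was 0.272 CPM there. Pcdhb16 was the leading beta row in 11 of 12 libraries, with 16.3 to 25.3% of beta reads, and Pcdhb20 led in Math1Hoxa5-IRES-GFP replicate 3, with 27.1%.

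**Figure D3:**
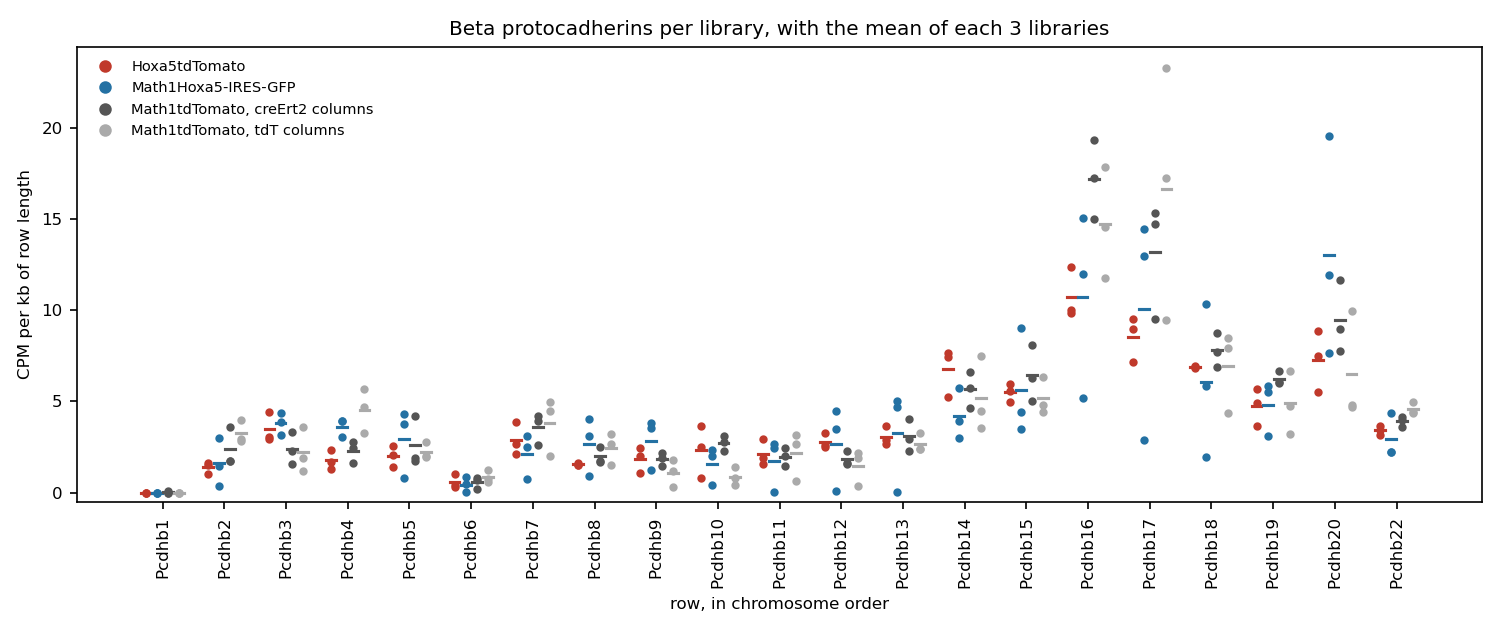
Each point is 1 library and each short bar the mean of 3 libraries; the y axis gives CPM per kilobase of row length, and the 21 beta rows run along the x axis in chromosome order. Pcdhb16 and Pcdhb17 stood highest in Math1tdTomato, at means of 16.0 and 14.9. Pcdhb20 was above every reference in Math1Hoxa5-IRES-GFP replicates 1 and 3 and inside their range in replicate 2.

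Pcdhb16 and Pcdhb17, the most abundant beta rows, were among those low in Hoxa5tdTomato. Pcdhb16 stood at 65.2, 52.0 and 52.7 CPM in Hoxa5tdTomato and at 79.5, 63.1 and 27.4 CPM in Math1Hoxa5-IRES-GFP. In Math1tdTomato it stood at 90.9, 102 and 79.1 CPM in the creErt2 libraries and at 76.7, 62.1 and 94.0 CPM in the tdT libraries. Hoxa5tdTomato was below every creErt2 library and overlapped with 1 tdT library. Its log2 fold change was -0.57 ± 0.27 (SE, adjusted p = 0.345, edgeR) against all 6 references and -0.68 ± 0.31 (adjusted p = 0.532, edgeR) within its set. With the 6 libraries of the set fitted alone, Pcdhb16 fell by 0.65 on the log2 scale (adjusted p = 0.0228, edgeR). It was the single beta row of 20 called lower there, where 3.01% of tested genes were called lower.

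Pcdhb17 stood at 29.3, 31.1 and 23.5 CPM in Hoxa5tdTomato and at 42.4, 47.2 and 9.38 CPM in Math1Hoxa5-IRES-GFP, against 48.1, 50.1 and 31.1 CPM in the creErt2 and 76.1, 56.4 and 31.0 CPM in the tdT libraries of Math1tdTomato. Hoxa5tdTomato overlapped with the lowest references by a small margin, and the log2 fold change was -0.80 ± 0.41 (SE, adjusted p = 0.389, edgeR). Without Pcdhb16 and Pcdhb17 the beta sum was 234, 235 and 228 CPM in Hoxa5tdTomato and 295, 239 and 209 CPM in Math1Hoxa5-IRES-GFP, against 254, 251 and 270 CPM in the creErt2 and 235, 219 and 263 CPM in the tdT libraries of Math1tdTomato. In TMM-scaled CPM, Hoxa5tdTomato then still lay below every creErt2 library and overlapped with the tdT libraries. These 2 rows were left out after their values were seen.

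Over the beta cluster, 0 of 20 tested rows were called against all 6 references in Hoxa5tdTomato and 0 of 20 in Math1Hoxa5-IRES-GFP (edgeR; 1.73% and 1.84% of tested genes). DESeq2 also called 0 in both, and 0 had an unadjusted p under 0.05 in edgeR. Log2 fold changes in Hoxa5tdTomato had a median of -0.18 and ran from -1.02 ± 0.63 for Pcdhb2 to 0.76 ± 0.76 for Pcdhb12. With library size as the only scaling that median was -0.02. In Math1Hoxa5-IRES-GFP the median was -0.19, and values ran from -0.81 ± 0.62 for Pcdhb2 to 0.97 ± 0.61 for Pcdhb9. Replicate 3 of Math1Hoxa5-IRES-GFP moved these values: without it the median was 0.08 and Pcdhb2 was -0.33, while without replicate 1 they were -0.37 and -1.63. Within sets 0 of 20 rows were called in either condition (edgeR; 0.557% of tested genes in Hoxa5tdTomato and 0.862% in Math1Hoxa5-IRES-GFP), and the medians were -0.23 in Hoxa5tdTomato and -0.11 in Math1Hoxa5-IRES-GFP. The standard error of Pcdhb6, the least abundant tested row, was 1.03 in Hoxa5tdTomato and 1.05 in Math1Hoxa5-IRES-GFP. A difference of that size, or one somewhat larger, would not have been called in it.

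Few beta rows separated the groups. Pcdhb12 stood at 7.65, 7.94 and 9.88 CPM in Hoxa5tdTomato, above all references at 1.11 to 6.93 CPM in Math1tdTomato. Pcdhb2 stood at 4.18, 2.89 and 4.48 CPM in Hoxa5tdTomato, below all references at 4.88 to 11.1 CPM in Math1tdTomato. These were the 2 of 20 rows without overlap in Hoxa5tdTomato, where 14.1% of tested genes had none. Against the 3 creErt2 references 5 of 20 rows lay below and 1 above, where 12.7% of tested genes lay below and 12.7% above. In Math1Hoxa5-IRES-GFP 0 of 20 rows were without overlap, against 6.37% of tested genes. Pcdhb20 stood at 40.6, 26.0 and 66.4 CPM in Math1Hoxa5-IRES-GFP, against 16.0 to 39.7 CPM in Math1tdTomato, and its log2 fold change was 0.71 ± 0.34 (SE, adjusted p = 0.304, edgeR).

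Math1Hoxa5-IRES-GFP replicate 3 had the widest beta scatter of the 12 libraries. It had 16 beta rows with 10 or more counts, against 19 or 20 in each other library. Pcdhb13 had 0.10 CPM there, against 18.6 and 17.4 CPM in replicates 1 and 2 and 8.44 to 15 CPM in Math1tdTomato. Pcdhb12 had 0.251 CPM there, against 13.5 and 10.6 CPM in replicates 1 and 2. In that library 6 of 20 beta rows (30.0%) lay at least 4-fold from the mean of the references, as did 15% of the other tested genes. In the other 11 libraries 0 or 1 beta row did, and 0.979 to 4.31% of other genes. Scatter of this kind was thus present in replicate 3 outside the beta cluster too.

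**Figure D4:**
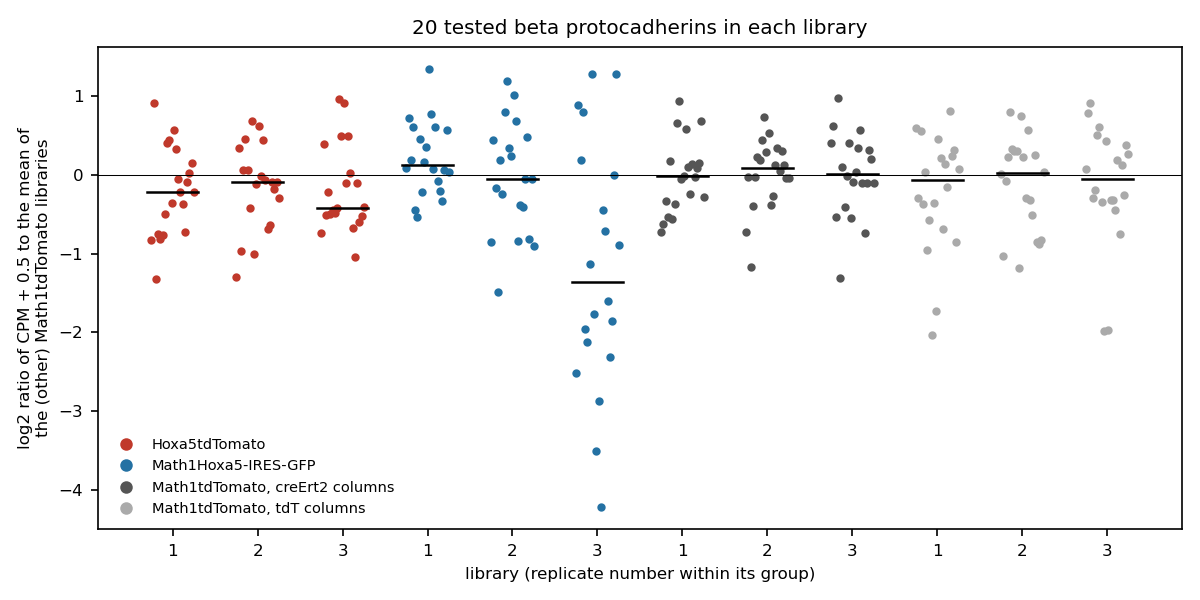
Each point is 1 of the 20 tested beta rows in 1 library; the y axis gives the log2 ratio of CPM + 0.5 to the mean of the Math1tdTomato libraries (for a reference, of the other references), and black bars are medians. The medians lay between -0.417 and 0.126 in 11 libraries and at -1.37 in Math1Hoxa5-IRES-GFP replicate 3, where the points also spread most widely.

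The effects in the 2 conditions were compared directly as the difference between the Hoxa5tdTomato effect and the Math1Hoxa5-IRES-GFP effect, each within its own set. No member passed, and neither did any other gene (0 of 14732, 0.0%, edgeR), although 1181 genes had an unadjusted p under 0.05 and DESeq2 called 54 (0.367%). Alpha rows differed by a log2 value of -0.17 to -0.15 (SE 0.20 to 0.21, adjusted p from 0.877 to 0.903). Gamma rows differed by -0.44 to -0.20 (SE 0.17 to 0.25, adjusted p from 0.622 to 0.83), and beta rows by -1.43 to 1.03. An unequal response of the clusters in the 2 conditions was therefore not shown, and these errors do not show that the responses were equal.

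**Figure D5:**
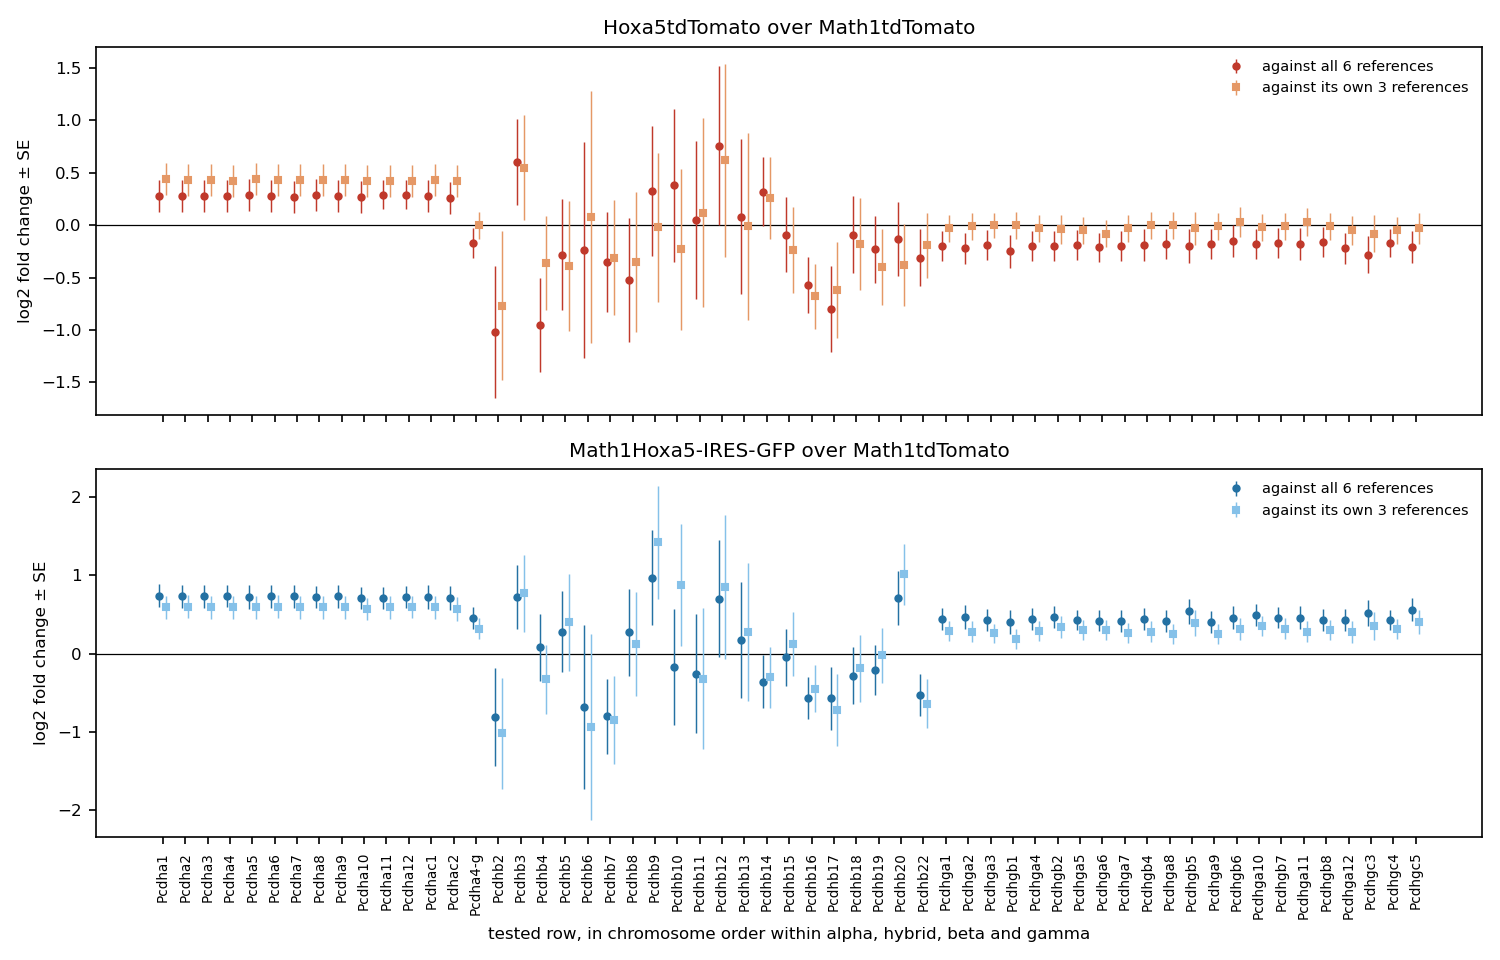
Log2 fold change (y axis, with its standard error) of the 57 tested rows over Math1tdTomato, for Hoxa5tdTomato in the upper and Math1Hoxa5-IRES-GFP in the lower panel; circles use all 6 references and squares the 3 of the same set. Alpha rows form a flat line at 0.26 to 0.29 in Hoxa5tdTomato and 0.71 to 0.74 in Math1Hoxa5-IRES-GFP with all 6 references, and beta rows scatter with wide errors.

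Genes known to control protocadherin promoter choice mostly did not pass. Of 21 such regulators, all tested, 0 were called higher and 1 lower in Hoxa5tdTomato (edgeR; 0.842% and 0.889% of tested genes), and their median log2 fold change was -0.39. The 1 called was Stag1, a cohesin subunit, at 163 ± 6.24 CPM in Hoxa5tdTomato (SD, n = 3) against 259 ± 31.8 CPM in Math1tdTomato (SD, n = 6). It fell by 0.67 on the log2 scale (SE 0.15, adjusted p = 0.0307, edgeR). Within its set the value was -0.50 ± 0.14 (adjusted p = 0.159, edgeR), and the call was lost.

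In Math1Hoxa5-IRES-GFP 0 of the 21 regulators were called (edgeR), where 1.84% of tested genes were, with a median of 0.10. Within sets 0 of the 21 were called in either condition (edgeR), with medians of -0.22 in Hoxa5tdTomato and -0.06 in Math1Hoxa5-IRES-GFP. Of all tested genes 0.557% and 0.862% were called there. These counts do not show that the regulators were unchanged. Ctcf, the insulator protein that binds these promoters, had log2 fold changes of -0.39 in Hoxa5tdTomato (adjusted p = 0.259, edgeR) and 0.10 in Math1Hoxa5-IRES-GFP (adjusted p = 0.803, edgeR). Rad21, another cohesin subunit, had -0.17 in Hoxa5tdTomato and 0.02 in Math1Hoxa5-IRES-GFP. Smchd1, a chromatin protein that silences the clusters, had -0.56 in Hoxa5tdTomato (adjusted p = 0.146, edgeR) and -0.04 in Math1Hoxa5-IRES-GFP. Setdb1, a histone methyltransferase acting at the locus, had -0.12 in Hoxa5tdTomato and -0.33 in Math1Hoxa5-IRES-GFP. Dnmt3b, which methylates the promoters, stood low, at 5.02 ± 1.43 CPM in Hoxa5tdTomato and 10.2 ± 4.85 CPM in Math1Hoxa5-IRES-GFP, against 5.91 ± 2.90 CPM in Math1tdTomato (SD, n = 3, 3 and 6), and was not called in either.

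Downstream partners and neighbouring genes gave no calls. Of 26 effectors, among them the focal adhesion kinases, the WAVE complex and the proteases that release the intracellular end, 0 were called in either comparison (edgeR; 1.73% of tested genes in Hoxa5tdTomato and 1.84% in Math1Hoxa5-IRES-GFP). At an unadjusted p under 0.05, 6 of 26 passed in Hoxa5tdTomato, as did 2148 of 14732 genes, and 3 of 26 in Math1Hoxa5-IRES-GFP, as did 2456 of 14732 genes. Their median log2 fold change was -0.20 in Hoxa5tdTomato and 0.02 in Math1Hoxa5-IRES-GFP. Within sets the medians were -0.11 and -0.02 with 0 called, where 0.557% and 0.862% of tested genes were. Ptk2, focal adhesion kinase, came closest, with a log2 fold change of -0.79 ± 0.20 in Math1Hoxa5-IRES-GFP (adjusted p = 0.0504, edgeR), and was chosen for mention after its values were seen. Of 21 other genes that flank or lie inside the clusters, 20 were tested and 0 were called in either comparison (edgeR), with 5 at an unadjusted p under 0.05 in Hoxa5tdTomato and 3 in Math1Hoxa5-IRES-GFP, beside those same counts over all genes. Their median was -0.16 in Hoxa5tdTomato and -0.19 in Math1Hoxa5-IRES-GFP, and within sets -0.02 and -0.24, with 0 called. Taf7, which lies between the beta and gamma clusters, had log2 fold changes of -0.23 in Hoxa5tdTomato and -0.16 in Math1Hoxa5-IRES-GFP. Diaph1, listed under its older symbol Diap1, lies beyond the gamma cluster and had 0.07 in Hoxa5tdTomato and 0.47 in Math1Hoxa5-IRES-GFP.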

How the data were processed

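The authors deposited 1 table of whole-number read counts for 23079 genes in 12 libraries, with gene lengths and no normalization. The submitters' processing notes name mm10 and bcl2fastq 1.8.4. No source at hand names the aligner, counter, annotation or strandedness. Library totals ran from 9973484 to 29820776 counts. Replicates of every group differed beyond sampling noise.

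Genes were filtered with filterByExpr (minimum count 10) and scaled by TMM. They were tested with the quasi-likelihood test of edgeR 4.0.16 in R 4.3.3, with Benjamini-Hochberg adjustment at 0.05, in 1 fit of 3 groups. A fit of 4 groups split the references by column name. DESeq2 1.42.0 was an alternative. CPM per kilobase used the deposited row lengths, or the shared exon lengths. The fits were tested on simulated counts with less spread between libraries (dispersion 0.05) than these data had (common dispersion 0.312). That test therefore does not cover spread of the size found here. Members, lists and rules were chosen with earlier results of these data known. Named were called members, the highest and lowest of each cluster, C-type genes and extreme fold changes. Amplified reads are not independent molecules.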

Additional observations from a re-analysis of the deposited data

Results flagged for a closer look

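Of 32 groups of values examined for a sample far from the others, 1 was picked out, where chance gives about 1 in 20. The summed beta level in Math1tdTomato was 338 CPM in tdT replicate 2, below the other references at 380 to 403 CPM, with a gap of 0.646 of the group's range.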

How the results depend on the processing

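Hoxa5tdTomato against Math1tdTomato had 255 genes called. DESeq2 called 622, the fit of 4 groups 82, each set fitted alone 980, and the replicate block in the fit of 4 groups 72. Leaving out 1 library gave 35 to 728. Each set alone called 14 alpha rows and 1 beta row, where all 6 references gave 0.

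Math1Hoxa5-IRES-GFP against Math1tdTomato had 271 genes called. DESeq2 called 831 and 7 gamma rows, the fit of 4 groups 127, each set alone 10 and the replicate block 77. Leaving out 1 library gave 190 to 575 genes, 13 to 14 alpha rows and 0 to 5 gamma rows. The 14 alpha calls became 2 with library size as the only scaling and 0 in the fit of 4 groups, in each set alone, under the replicate block and in reads above the lowest row. For the difference of the effects, DESeq2 called 54 genes, and leaving out 1 library gave 0 to 3, against 0.

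The beta median in Math1Hoxa5-IRES-GFP was -0.37 to 0.08 when 1 library was left out. Values near 0 in Hoxa5tdTomato changed sign. With library size alone, Pcdhb20 was 0.02, Pcdhgb6 0.01 and Pcdhgb8 0.01. In the fit of 4 groups, Pcdhb6 was 0.08, Pcdhb9 -0.02 and Pcdhgb6 0.03, and 0.09, -0.02 and 0.02 without Math1Hoxa5-IRES-GFP replicate 3, an alternative chosen after seeing the data, as were the reads above the lowest row. In each set alone, Pcdhb6 was 0.12, Pcdhga10 0.01, Pcdhga9 0.02, Pcdhgb1 0.03, Pcdhgb6 0.05 and Pcdhgb8 0.02. With the replicate block, Pcdhb6 was 0.13, Pcdhb9 -0.08 and Pcdhgb6 0.03. Leaving out 1 library gave -0.93 to 0.07 for Pcdhb6 and -0.30 to 0.04 for Pcdhb20. The cause was not tested. Same-numbered libraries of a set correlated at -0.0281 to 0.0493 in their deviations, and differently numbered ones at -0.0993 to 0.0945. These values do not set same-numbered pairs apart, and they cannot exclude a shared litter or preparation. Library size alone moved the median of all genes by 0.16 in Hoxa5tdTomato and -0.13 in Math1Hoxa5-IRES-GFP, with alpha medians of 0.44 and 0.61 there. The beta medians were then -0.02 and -0.31, and the gamma medians -0.03 and 0.31.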
